A study of Mus musculus with 6 samples.

Results

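Eosinophil and basophil genes were examined in the epithelium of the mouse common bile duct. The set holds 9 genes chosen by symbol: Epx, Prg2, Prg3, Ear1, Ear2, Siglecf, Il5ra, Mcpt8 and Alox15. Every non-control probe named for one of them was taken, which gave 12 probes, out of 56605 probes and 37008 named genes on the array. Total RNA of C57BL/6 mice had been hybridised to 1-colour Agilent arrays with 60-base probes, 1 array per sample. The 3 DOX+ samples came from mice with an inducible Fgf10 construct, labelled iFGF10, given 0.02% doxycycline in their drinking water for 5 days. The 3 DOX- samples came from mice that drank plain water for the same 5 days. Their source names call them iFGF10 mice without treatment, while their descriptions carry WT and 2 numbers, so whether they held the construct, and whether each was 1 mouse or a pool, is not settled by the labels. The sources used here do not name the promoter or the cell type that drives it. No mice without the construct that drank doxycycline were analysed here, so the drug and the induced gene cannot be told apart. The series title places the study in papillary tumours of the biliary tree and FGF10 signalling, and the comparison asks what induction changes in the duct.

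Eosinophils are granulocytes of parasite defence and allergic tissue. Their granules store Epx, a peroxidase, Prg2, the major basic protein, Prg3, its homologue, and ribonucleases such as Ear1 and Ear2 in the mouse. They develop and survive under interleukin-5, whose receptor has Il5ra as its ligand-binding chain, and mouse eosinophils carry the sialic acid-binding lectin Siglecf. Basophils are a related, rarer granulocyte, marked in the mouse by the serine protease Mcpt8. Alox15 is a lipoxygenase that makes lipid mediators from arachidonic acid and is known from eosinophils, some macrophages and epithelia. Several of these genes are not private to eosinophils: Ear ribonucleases and Siglecf are also known from macrophages, and Siglecf from intestinal tuft cells, a chemosensory epithelial cell. In tissue RNA, fewer cells of a type and less RNA per cell cannot be told apart.

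Values are log2 levels, the log2 processed intensity of a probe minus that of the array's 75th percentile, so 0 is the level of a spot brighter than 75% of the spots on its array. Agilent's flag "well above background" marks a spot as measured, and the dimmest spot with that flag lay between -5.23 and -4.71 on the 6 arrays. Between 59.93% and 61.9% of spots had it on the DOX+ arrays, against 55.93% to 60.61% on the DOX- arrays, and no spot was saturated. All 6 arrays lay on 1 slide and came from 1 scan. On that slide DOX- replicate 1 sat in a row with the 3 DOX+ arrays, whereas the other DOX- arrays had a row to themselves. All 10 cholangiocyte markers were measured on all 6 arrays, among them Krt19 at 7.31, 7.03 and 6.96 in DOX+ and 6.91, 7.33 and 7.88 in DOX-. Genes were tested with limma after a filter that asks for a measured signal on all 3 arrays of at least 1 group, with Benjamini-Hochberg adjustment over 20737 genes and a threshold of 0.05. Of these genes 8 passed, which is 0.0386%, and 4 of them were higher in DOX+, 0.0193%. Because separate animals are stated only as a number per group, each p reflects spread among these samples.

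Of the 9 genes, 4 were measured on all 6 arrays (Ear1, Ear2, Siglecf and Il5ra), 2 on some (Prg2 and Alox15) and 3 on none (Epx, Prg3 and Mcpt8). By probe, 41.7% of the 12 probes were measured on all 6 arrays and 41.7% on none, against 51.3% and 34.1% of all probes. The 4 genes measured throughout are those that passed the filter, and 0 of them passed the limma test. At an unadjusted p under 0.05 there were 0 of the 4, against 2766 of all 20737 genes. With array weights there were 3 (Ear1, Ear2 and Siglecf) and without DOX- replicate 1 there were 2 (Ear1 and Ear2). There was 1 without DOX+ replicate 1 (Ear2) and 1 without DOX+ replicate 3 (Siglecf). Without the filter on dim probes there was 1 of 9 (Prg2, signals below background included). None of them was past the adjusted threshold. For the 4 tested genes the DOX+ and DOX- arrays overlapped. Among all genes tested the groups were apart for 21.0%, a share against which 4 genes are too few to judge. The arrays overlapped for the other genes of the set as well, but their levels include signals below background. The means of Ear1 and Ear2 were higher in DOX+ and that of Siglecf lower, each by more than 1 on the log2 scale and none past the test. A mean higher in DOX+ by 1 or more was found in 3.34% of all genes tested.

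**Figure D1:**
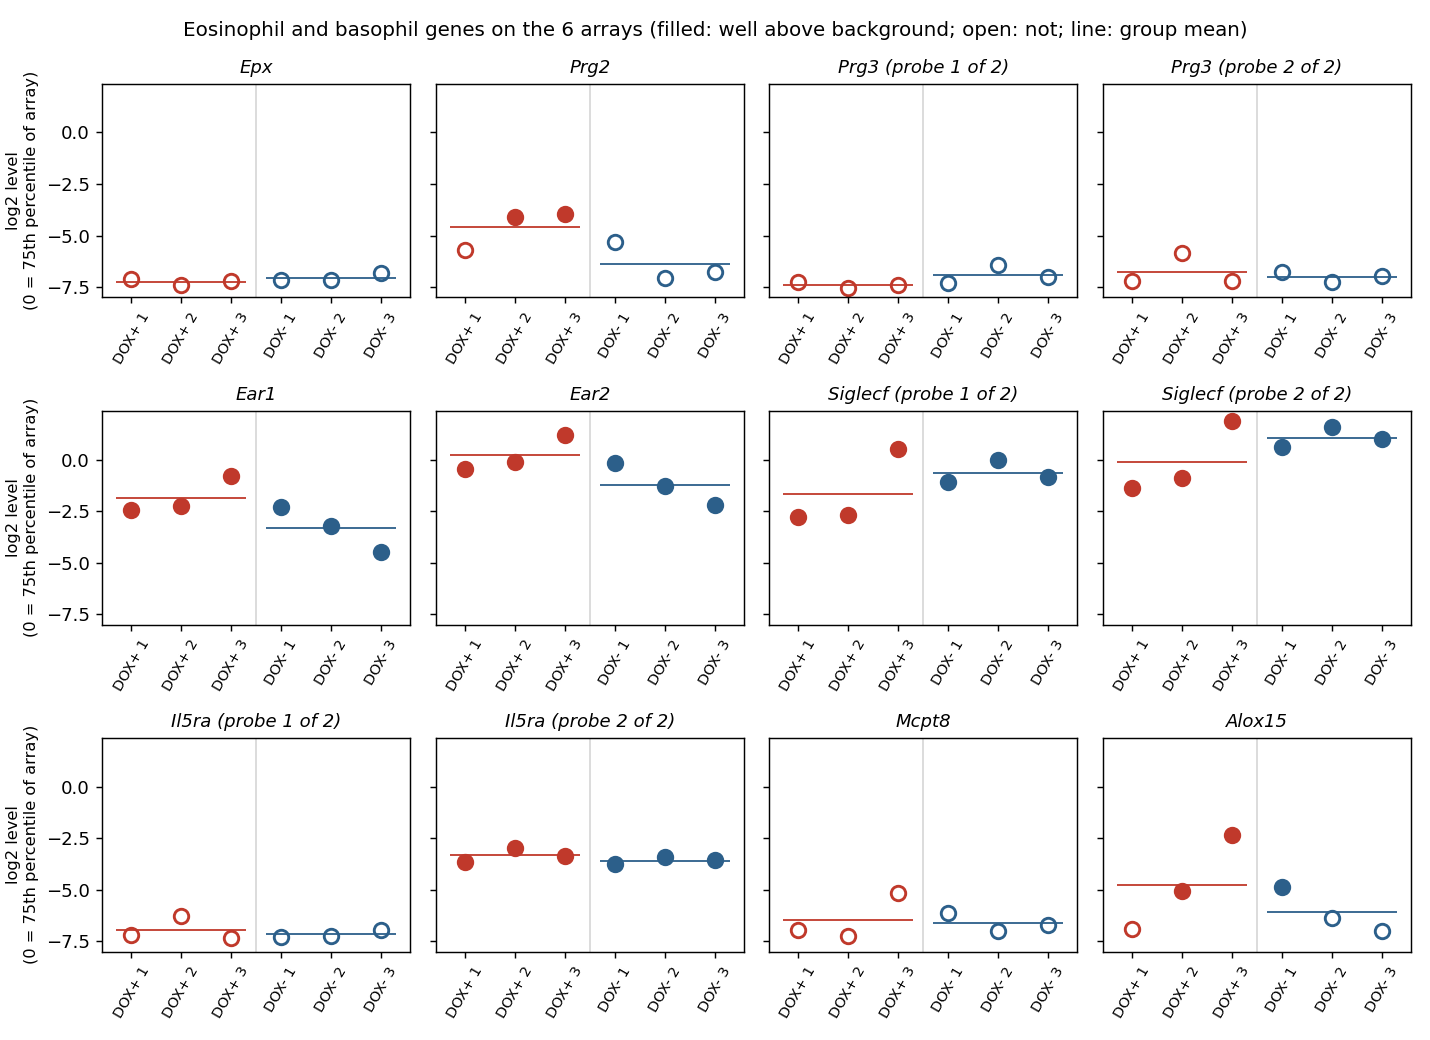
Log2 level (vertical axis, 0 is the array's 75th percentile) of the 12 probes on the 3 DOX+ arrays (red, left) and the 3 DOX- arrays (blue, right). Filled points were well above background, open points were not, and horizontal lines are group means. Epx, Prg3 and Mcpt8 have open points only, and Ear1, Ear2, both Siglecf probes and the second Il5ra probe have filled points on all 6 arrays.

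The granule protein genes were tested by probes that match the following stretches, shown because what the arrays say of granule RNA rests on them. The Epx probe lies at chr11:87678288-87678347 on the minus strand and the Prg2 probe at chr2:84822799-84822858 on the plus strand (mm9, from the files).
Epx probe: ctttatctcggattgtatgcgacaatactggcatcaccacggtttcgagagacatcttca
Prg2 probe: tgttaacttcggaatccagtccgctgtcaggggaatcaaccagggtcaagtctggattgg
Epx, the eosinophil peroxidase, had levels of -7.12, -7.39 and -7.23 in DOX+, against -7.17, -7.14 and -6.83 in DOX-. None of the 6 arrays measured it. The processed intensity of the spot was 4.96 to 6.04 units in DOX+ and 5.69 to 6.30 units in DOX-, at the bottom of the scale.

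Prg3, the major basic protein homologue, has 2 probes on chromosome 2, at chr2:84831668-84833177, a span longer than the probe and so across a splice junction, and at chr2:84833897-84833956 (mm9, plus strand). Neither was measured on any array. The intensity of the first was 4.49 to 5.44 units in DOX+ and 5.14 to 10.3 units in DOX-. That of the second was 4.76 to 14.5 units in DOX+ and 5.31 to 7.39 units in DOX-.

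Prg2, the major basic protein, was measured on DOX+ replicates 2 and 3 alone. Its levels were -5.72, -4.12 and -3.97 in DOX+, against -5.30, -7.08 and -6.79 in DOX-. The dimmest DOX+ array lay below the brightest DOX- array, so the groups overlapped. Since no DOX- array measured it, the DOX+ mean was set against the mean limit of the DOX- arrays and was 1.24-fold higher. The DOX+ mean includes replicate 1, which was not measured, so this value is no strict lower bound. Prg2 failed the filter and has no limma test where the filter was used. The signals as recorded, those below background included, averaged 1.79 higher in DOX+ on the log2 scale, which is no measured difference; it was 0.70 when blocking on the slide row, which compares the DOX+ arrays with DOX- replicate 1 alone, and 0.38 with another background correction (normexp). Prg2 and Prg3 are neighbours among the protein-coding genes of GRCm38.p6.

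The ribonucleases Ear1 and Ear2 were the granule genes with a measured signal on every array. Ear1 had levels of -2.45, -2.26 and -0.80 in DOX+, against -2.29, -3.23 and -4.50 in DOX-. DOX+ replicate 3 was the highest array and DOX- replicate 3 the lowest, and DOX- replicate 1 lay among the DOX+ arrays. The means were -1.84 ± 0.91 in DOX+ and -3.34 ± 1.11 in DOX- (SD, n = 3 each), a difference of 1.51 (SE 0.67; limma adjusted p = 0.400).

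Ear2 followed the same order of arrays. Its levels were -0.46, -0.09 and 1.20 in DOX+, against -0.15, -1.30 and -2.18 in DOX-. DOX- replicate 1 lay above DOX+ replicate 1 and just below DOX+ replicate 2. The means were 0.22 ± 0.87 in DOX+ and -1.21 ± 1.02 in DOX- (SD, n = 3 each), a difference of 1.43 (SE 0.63; limma adjusted p = 0.397). Set against DOX- replicate 1 alone, as the slide row block does, the DOX+ arrays were higher by 0.46 for Ear1 and 0.37 for Ear2 (limma adjusted p = 0.956 and 0.959). The differences also hung on the third arrays: without DOX+ replicate 3 they were 0.99 for Ear1 and 0.93 for Ear2, and without DOX- replicate 3 they were 0.92 and 0.94.

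Ear genes form a family of close copies, so a probe for one may also bind RNA of another. The Ear1 probe lies at chr14:44396709-44396768 on the minus strand and the Ear2 probe at chr14:44681119-44681178 on the plus strand (mm9). The probe of another gene most like that of Ear1 was an Ear7 probe, with 46 of 55 overlapping bases equal (83.6%). Both are shown so that the 9 bases that tell them apart can be seen, in capitals:
Ear1 probe: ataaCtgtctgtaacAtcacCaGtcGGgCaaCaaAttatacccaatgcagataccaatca
Ear7 probe: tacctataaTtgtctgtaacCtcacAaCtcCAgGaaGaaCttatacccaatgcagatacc
The Ear7 probe was measured on no array. The probe most like that of Ear2 belongs to Ear6 (40 of 45 overlapping bases equal, 88.9%). Among the probes of Ear1, Ear2, Ear10, Ear12 and Rnase2a no pair overlapped by 40 bases or more at 80% identity. Probes were compared with probes alone, which can lie on different stretches of like transcripts. Whether a probe binds RNA of another Ear gene was therefore not tested, and these genes may not be measured separately.

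Ear1 and Ear2 are separated among the protein-coding genes of chromosome 14 by Ear10, Ang5 and Ang6. Their promoters, taken as the 250 bases upstream of each RefSeq start (GRCm38.p6), were equal at 246 of 248 aligned bases, 99.2%. They are shown for this likeness, with the 2 unequal bases in capitals. Whether the promoters bear on the order of arrays was not tested. The Ear1 stretch is chr14:43819640-43819889 on the minus strand and the Ear2 stretch chr14:44102404-44102653 on the plus strand.
Ear1 promoter: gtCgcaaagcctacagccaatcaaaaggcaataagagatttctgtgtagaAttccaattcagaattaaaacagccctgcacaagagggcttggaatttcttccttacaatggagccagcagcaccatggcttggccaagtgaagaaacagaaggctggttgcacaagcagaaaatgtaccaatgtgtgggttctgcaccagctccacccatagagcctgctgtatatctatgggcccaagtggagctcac
Ear2 promoter: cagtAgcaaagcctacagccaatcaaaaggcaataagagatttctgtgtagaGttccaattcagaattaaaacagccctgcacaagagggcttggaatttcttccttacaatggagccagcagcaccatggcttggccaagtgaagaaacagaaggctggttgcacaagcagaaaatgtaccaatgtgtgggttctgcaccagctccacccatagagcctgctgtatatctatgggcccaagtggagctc
The Ear1 promoter shared 93.5% of aligned bases with that of Ear10, 91.5% with that of Rnase2b, 85.1% with that of Ear6 and 78.9% with that of Rnase2a. The letters TTGCNNAA, known from C/EBP factors of granulocyte development, were sought on either strand. They occurred in 2 of the 7 promoters matched for the set (Ear1 and Ear2) and in 9.56% of 32851 mouse promoters of this length. Of 4 other Ear promoters 3 held them (Ear10, Rnase2a and Rnase2b). Since the Ear promoters are so alike, these occurrences are not independent of each other. AGATAA, known from GATA factors, occurred in 1 of the 7 promoters matched for the set, that of Il5ra, and in 9.99% of all promoters. GAGGAAGT, known from PU.1, occurred in none of the 7 and in 2.44% of all. No promoter of the set held more than 1 of these motifs. Prg2 and Alox15 were not matched to a promoter in the table.

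The remaining Ear family was read from a list of 11 names, which current symbols reduce to 9 genes, 7 of them on the array. Rnase2a, the gene also called Ear11, had levels of -1.70, 0.37 and 0.36 in DOX+, against -1.57, -2.69 and -3.68 in DOX-. Ear12 had -1.93, -0.36 and 0.06 in DOX+, against -1.84, -2.96 and -3.80 in DOX-. Both had DOX+ replicates 2 and 3 above all DOX- arrays and DOX+ replicate 1 just below DOX- replicate 1, as did Ear10, named after its values were seen, with -2.26, -1.38 and -0.63 in DOX+, against -2.12, -3.22 and -4.18 in DOX-. Their differences were 2.32 (SE 0.75) for Rnase2a, 2.12 (SE 0.67) for Ear12 and 1.75 (SE 0.62) for Ear10, with limma adjusted p = 0.299, 0.297 and 0.327. Ear6, also named after its values were seen, differed by 0.19 (SE 0.25; limma adjusted p = 0.775). No array measured Ear4, Ear7 or Rnase2b. Of the 4 tested genes all had the higher mean in DOX+, against 48.2% of all genes, none passed the test in either direction, and the median difference was 1.93, against -0.01 over all genes tested. Ear6 entered these counts through DOX+ alone, since DOX- replicate 3 did not measure it.

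**Figure D2:**
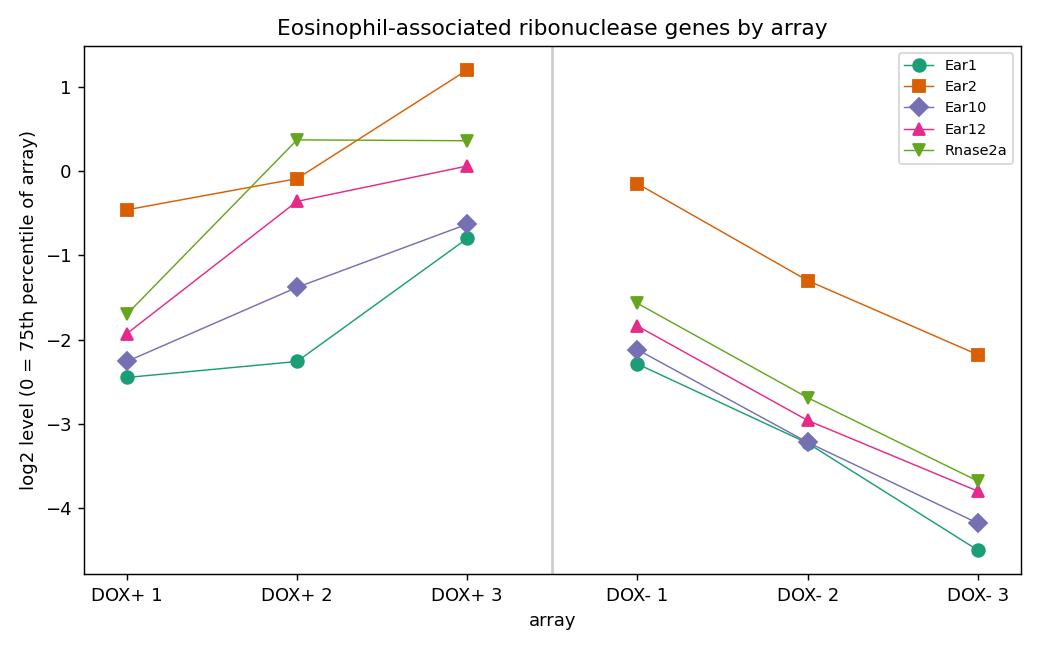
Log2 level (vertical axis, 0 is the array's 75th percentile) of 5 eosinophil-associated ribonuclease genes on each DOX+ array (left) and DOX- array (right); lines only join the values of 1 gene, since replicates have no order. In all 5 genes DOX- replicate 1 is within the DOX+ range and DOX- replicate 3 is the lowest array.

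Genes whose levels ran most like those of Ear1 over the 6 arrays were Dok2 (Pearson r = 0.995), Gm34589 (0.995) and Ear2 (0.994), out of 20735 compared. For Ear2 they were Dok2 (0.999), Pam (0.996) and Ear1 (0.994). Dok2 is an adaptor protein of blood cells, and Pam an enzyme that amidates peptides. With 6 arrays from 2 groups such values describe these arrays and carry no test.

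Siglecf ran against the ribonucleases in its mean. Its probes lie at chr7:50614417-50614476 and chr7:50614768-50614827 on the plus strand (mm9), and the brighter, at 50614768, stands for the gene. Levels there were -1.39, -0.90 and 1.90 in DOX+, against 0.62, 1.59 and 1.00 in DOX-. DOX+ replicate 3 was the highest of the 6 arrays, and DOX+ replicates 1 and 2 were the lowest. The means were -0.13 ± 1.78 in DOX+ and 1.07 ± 0.49 in DOX- (SD, n = 3 each), a difference of -1.20 (SE 0.86; limma adjusted p = 0.573). The probe at 50614417 gave -2.78, -2.71 and 0.50 in DOX+, against -1.09, -0.02 and -0.86 in DOX-. Its arrays had the same high and low samples, and its difference was -1.01 (SE 0.90; limma adjusted p = 0.669, every probe tested on its own). The size of the difference hung on single DOX+ arrays. For the probe at 50614768 it was -2.22 without DOX+ replicate 3 (limma adjusted p = 0.122), -0.57 without DOX+ replicate 1 and -0.81 without DOX+ replicate 2. For the other probe it was -2.09, -0.45 and -0.48 without the same arrays. With array weights it was -1.86 for the probe at 50614768 (limma adjusted p = 0.175).

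Tuft cell markers varied over the same arrays. Of 10 on the array 9 were tested, none passed, 8 had the lower mean in DOX+, and their median difference was -0.66, against -0.01 over all genes. Avil, an actin-binding protein, had 0.90, 2.80 and 3.99 in DOX+, against 2.53, 3.52 and 3.62 in DOX-. DOX+ replicate 1 was the lowest array for it, as for Siglecf. The summed level of the list (log2 of the summed linear values) was 3.05, 4.63 and 5.86 in DOX+, against 4.45, 5.36 and 5.44 in DOX-, so DOX+ replicate 3 was the highest array and DOX+ replicate 1 the lowest. Among the defining genes, the ion channel Trpm5 was measured on all 6 arrays and the transcription factor Pou2f3 on 4. The part of tuft cells in the Siglecf values was not tested. The genes nearest to Siglecf over the 6 arrays were Zc3h12d (Pearson r = 0.996), Dhx16 (0.995) and Naip1 (0.993), given as a description.

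**Figure D3:**
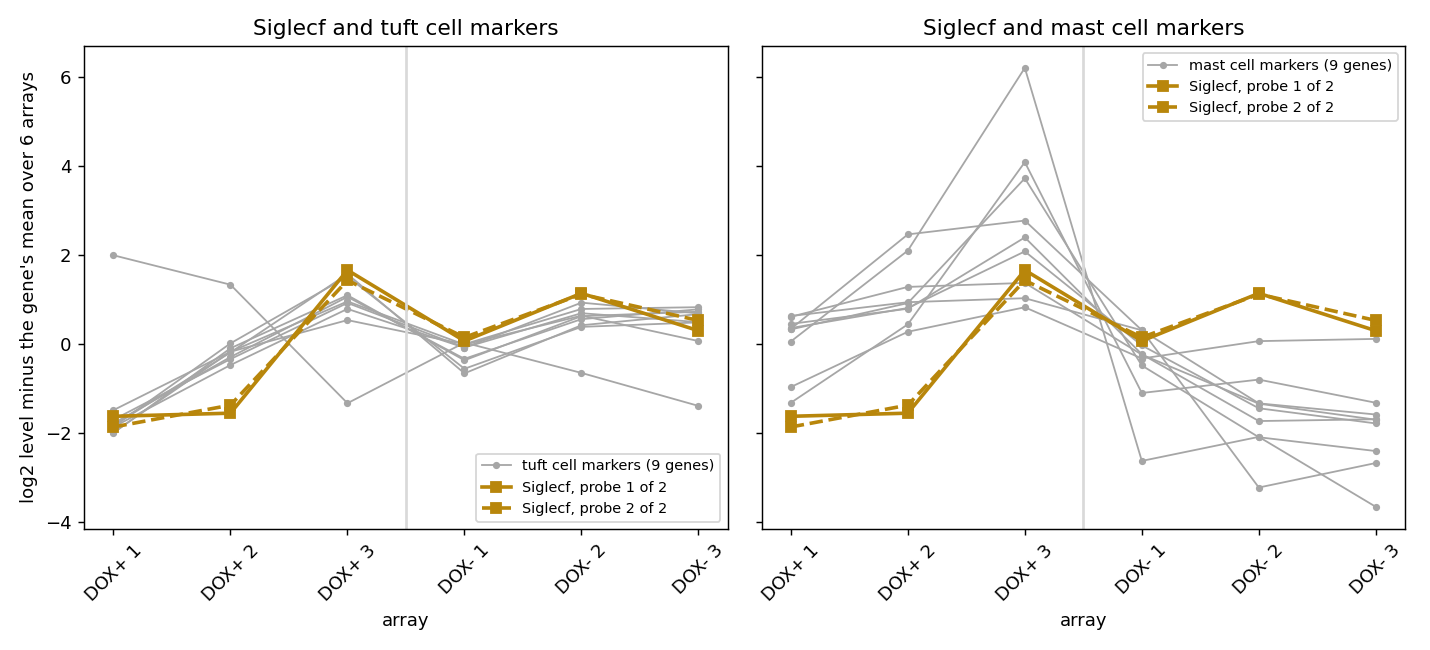
Both Siglecf probes (gold) beside the 9 tested tuft cell markers (left, grey) and the 9 tested mast cell markers (right, grey), each as log2 level minus the gene's mean over the 6 arrays, with DOX+ left of DOX-; lines only join the values of 1 gene. Siglecf and 8 of the 9 tuft cell markers are lowest on DOX+ replicate 1, and 7 of the 9 mast cell markers are lower on every DOX- array than on every DOX+ array.

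Il5ra, the interleukin-5 receptor chain, was level across the arrays. Its probe at chr6:106660378-106660437 (mm9, minus strand) gave -3.67, -2.95 and -3.37 in DOX+, against -3.75, -3.42 and -3.56 in DOX-. All 6 values lay within 0.80 of each other and the groups overlapped. The difference was 0.25 (SE 0.21; limma adjusted p = 0.645). The other probe, at chr6:106661009-106661068, was measured on no array. Nearest in pattern were Zfp874b (Pearson r = 0.993), Rsbn1 (0.983) and a transcript of a predicted gene (0.981).

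Other receptors and lineage factors of eosinophils gave no call among 8 tested of 11 on the array. The means of 5 were higher in DOX+ and of 3 lower, none of the 8 had groups apart, and the median difference was 0.18. Among the 5, Cebpe passed the filter through DOX+ alone. The highest on average were Pirb, an inhibitory immunoglobulin-like receptor, at 8.15, 7.99 and 7.83 in DOX+ and 7.90, 7.88 and 8.18 in DOX-, and Zfpm1, a GATA cofactor, at 5.06, 5.12 and 5.56 in DOX+ and 4.98, 5.25 and 5.67 in DOX-. Ccr3, the eotaxin receptor that defines eosinophils, was measured on DOX+ replicates 2 and 3 and DOX- replicates 1 and 2. Its levels were -5.60, -3.63 and -4.41 in DOX+, against -4.40, -3.86 and -6.56 in DOX-. Gata1, a transcription factor needed to make eosinophils and also used by mast and red blood cells, was measured on DOX+ replicates 2 and 3 alone. It had -6.17, -3.94 and -3.44 in DOX+, against -6.22, -7.07 and -6.78 in DOX-, with the DOX+ arrays just above the DOX- arrays, and no limma test. Its DOX+ mean was 1.32-fold higher than the mean limit of the DOX- arrays. That is no strict bound, since the mean includes DOX+ replicate 1, which was not measured. Ccr3 and Gata1 were named after their values were seen.

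Growth factors and attractants of eosinophils, and cytokines that act upstream of them, were tested in 7 of 11 cases, and none passed. Interleukin-5 itself (Il5) was measured on no array, nor were Il3 and Csf2, the other cytokines that sustain eosinophils. Ccl8, an attractant for eosinophils and other leukocytes, had 0.15, 2.07 and 1.13 in DOX+, against -0.50, -1.92 and -2.68 in DOX-. Every DOX+ array lay above every DOX- array, the 1 case among the 7 tested, as for 10.1% of all genes. Its difference was 2.81 (SE 0.69; limma adjusted p = 0.224). The eotaxin Ccl11, named after its values were seen, had 1.47, 1.71 and 1.83 in DOX+, against 1.76, 0.84 and 0.88 in DOX-, and its groups overlapped (difference 0.51, SE 0.28; limma adjusted p = 0.471). In the list 6 means were higher and 1 was lower in DOX+, and the median difference was 0.51. Ccl24 passed the filter through DOX+ alone, and Ccl7 and Il25 through DOX- alone.

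Mcpt8, the basophil protease, has 1 probe at chr14:56701075-56701134 (mm9, minus strand). It was measured on no array. Its levels were -6.97, -7.24 and -5.13 in DOX+, against -6.14, -7.00 and -6.69 in DOX-, and the intensity was 5.50 to 26.0 units in DOX+ and 6.44 to 11.6 units in DOX-. In the reference gene order Mcpt8 follows Mcpt1, Mcpt2, Mcpt9 and Mcpt4, proteases of mast cells, which are tissue-resident cells with granules.

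Of these neighbours Mcpt1, Mcpt2 and Mcpt4 were measured on all 6 arrays and Mcpt9 on none. Mcpt1 had -0.72, 1.32 and 5.42 in DOX+, against -3.40, -2.86 and -4.43 in DOX-. All DOX+ arrays were above all DOX- arrays, and DOX+ replicate 3 was far above the others (difference 5.57, SE 1.5; limma adjusted p = 0.246). Tpsb2, a tryptase, had -0.62, 0.05 and 0.14 in DOX+, against -1.47, -2.57 and -2.93 in DOX- (difference 2.18, SE 0.42; limma adjusted p = 0.176). Groups were also apart for Cma2, a chymase, which differed by 2.42 (SE 0.63; limma adjusted p = 0.240), and for Cpa3, a carboxypeptidase, which differed by 2.17 (SE 0.61; limma adjusted p = 0.257). Of 12 mast cell markers on the array 9 were tested and none passed. All 9 had the higher mean in DOX+, 7 of them with groups apart and higher (10.1% of all genes), of which Tpsg1 passed the filter through DOX+ alone, and the median difference was 2.18. The summed level was 3.51, 4.21 and 6.80 in DOX+, against 2.93, 1.84 and 1.65 in DOX-. Mrgprb2, a receptor of mast cells, was not measured on any array. Kit, another of the markers and named after its values were seen, differed by 0.09 (SE 0.45, limma adjusted p = 0.953). Its other tested probe gave -0.2, so its count among the higher means rests on the choice of probe.

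The summed mast cell level, Ear1 and Ear2 all had their highest array in DOX+ replicate 3 and their lowest in DOX- replicate 3. They differed on DOX- replicate 1, which lay below every DOX+ array for mast cells but above DOX+ replicate 1 for Ear1 and Ear2. The part of mast cells in the values of Ear1 and Ear2 was not tested. For macrophages, which also express Ear genes, the summed level was 6.26, 6.02 and 6.01 in DOX+, against 6.56, 6.36 and 5.53 in DOX-. Its lowest array was DOX- replicate 3 as well. Of 12 markers 10 were tested, none passed, 6 means were higher and 4 lower in DOX+, and the median difference was 0.07. Cd163, a haemoglobin scavenger receptor, had groups apart, with -1.14, -0.34 and -1.62 in DOX+, against -1.75, -2.66 and -2.84 in DOX- (difference 1.38, SE 0.42; limma adjusted p = 0.282). Timd4 was measured on no array, and the part of macrophages was not tested.

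Basophil genes other than Mcpt8 gave 9 tested of 16 on the array and no call. The means of 6 were higher and of 3 lower in DOX+, and the groups were apart and higher for 4, against 10.1% of all genes. Of the 4, 2 passed the filter through DOX+ alone, as did Osm among the other tested genes. Gata2, a transcription factor of basophils and mast cells, had -2.24, -1.54 and -1.77 in DOX+, against -2.69, -3.38 and -3.51 in DOX- (difference 1.34, SE 0.28; limma adjusted p = 0.194). Il1rl1, the interleukin-33 receptor, had -1.37, -0.19 and 0.36 in DOX+, against -1.89, -2.95 and -3.53 in DOX- (difference 2.39, SE 0.57; limma adjusted p = 0.219). The other 2, chains of the IgE receptor, were measured on all 3 DOX+ arrays but, in DOX-, on replicate 1 alone. Their DOX- means therefore include signals below background, and no difference or p is given. Fcer1a had -2.97, -1.72 and 0.04 in DOX+, against -4.0, -5.16 and -5.71 in DOX-. Ms4a2 had -4.19, -2.68 and -0.40 in DOX+, against -4.47, -7.33 and -7.04 in DOX-. These 4 are textbook genes of mast cells as well. Of the genes that set basophils apart, Cd200r3 was measured on no array and Prss34 on DOX+ replicates 2 and 3 and DOX- replicate 1, with -5.21, -4.82 and -4.41 in DOX+ and -4.26, -5.34 and -5.92 in DOX-. The 3 genes with the lower mean, named after their values were seen, were measured on all 6 arrays and their groups overlapped. Fcer1g, another IgE receptor chain, differed by -0.45, Hdc by -0.83 and Il18r1 by -0.94. The median difference of the list was 0.57, with Fcer1a, Ms4a2 and Osm counted in.

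**Figure D4:**
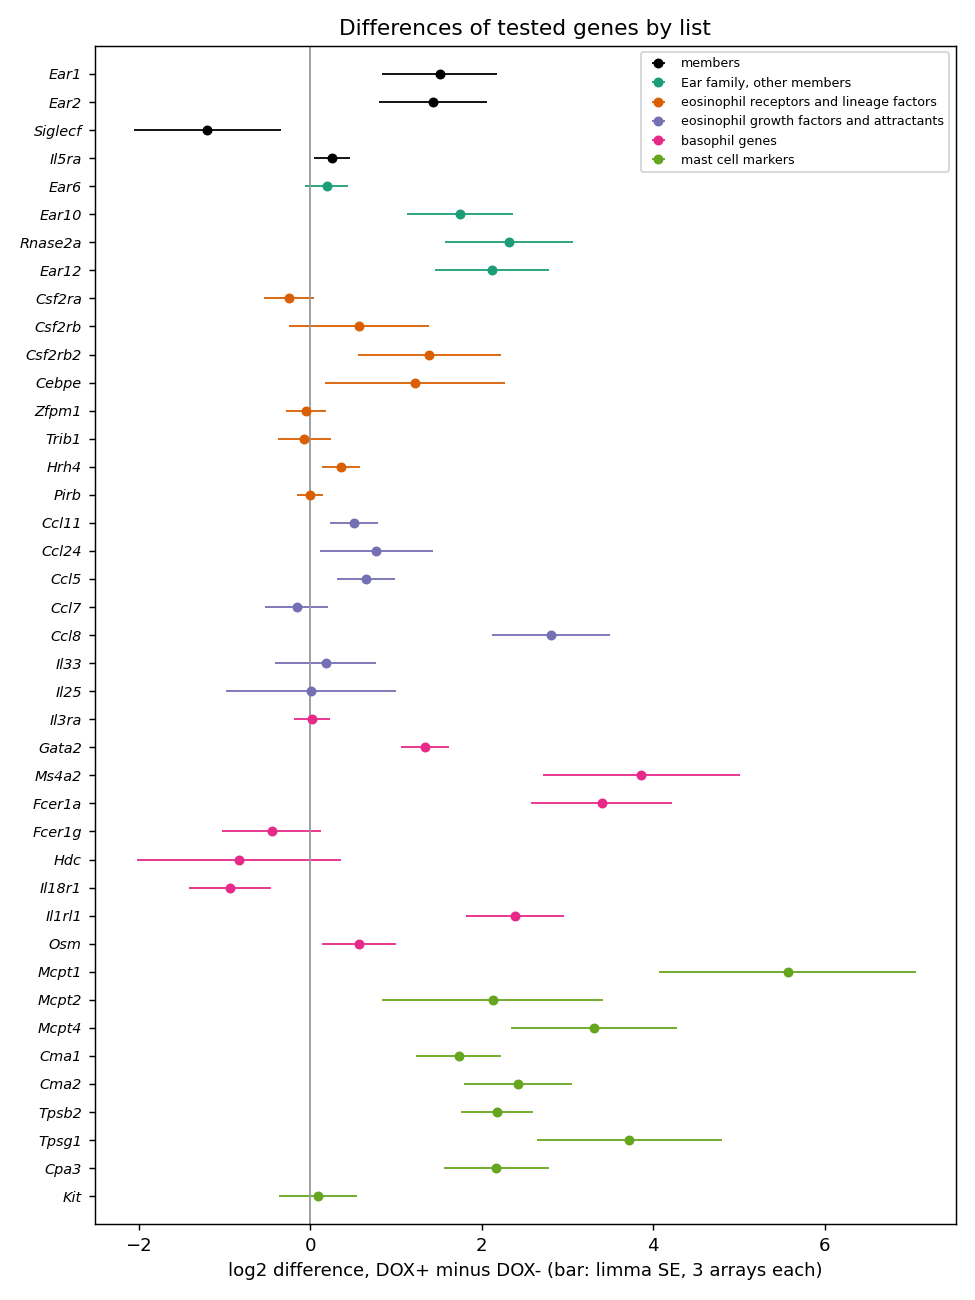
Log2 difference, DOX+ minus DOX- (horizontal axis), of the 4 tested genes of the set and of the tested genes of 5 related lists; bars are limma standard errors over 3 arrays per group. Ear1, Ear2 and the other ribonucleases apart from Ear6 lie between 1.43 and 2.32, Siglecf lies at -1.20, and the mast cell markers reach 5.57. Fcer1a, Ms4a2, Osm, Tpsg1, Ear6, Cebpe and Ccl24 include DOX- signals that were not measured, and Ccl7 and Il25 include such DOX+ signals.

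Alox15 is read by a probe of which the target spans chr11:70159115-70159339 (mm9, minus strand), a span longer than the probe and so across a splice junction, shown for that reason:
Alox15 probe: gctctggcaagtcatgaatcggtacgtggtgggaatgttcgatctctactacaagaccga
It was measured on DOX+ replicates 2 and 3 and on DOX- replicate 1. The levels were -6.89, -5.04 and -2.36 in DOX+, against -4.85, -6.36 and -7.00 in DOX-. DOX+ replicate 3 was the highest array, with an intensity of 178 units, while DOX+ replicate 1, with 5.99 units, was near the lowest. The signals as recorded, those below background included, averaged 1.31 higher in DOX+, which is no measured difference. The two-sided exact permutation p was 0.6 (n = 3 each), where the smallest p this design allows is 0.1, with no limma test because of the filter. This average was 0.10 without DOX+ replicate 3, 2.37 without DOX+ replicate 1, 0.84 without DOX- replicate 3 and 1.92 without DOX- replicate 1. Blocking on the slide row gave 0.09 and normexp 0.57. Genes nearest in pattern were U2surp (Pearson r = 0.990), 2210039B01Rik (0.987) and Herc1 (0.987).

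Enzymes and receptors around Alox15 were tested in 15 of 18 cases without a call, with the mean above that of DOX- in 8 and below it in 7, and a median difference of 0.03. Among the 8, Aloxe3 and Cysltr1 passed the filter through DOX+ alone. Groups were apart and higher for 3 (10.1% of all genes), and apart and lower for 1 (10.9% of all genes). Alox12e, an epidermal-type lipoxygenase whose gene is a neighbour of Alox15, had -0.82, -2.91 and -1.99 in DOX+, against -4.28, -3.68 and -4.18 in DOX- (difference 2.14, SE 0.52; limma adjusted p = 0.223). Dpep1, a dipeptidase that acts on leukotriene D, had -0.83, -0.24 and -1.53 in DOX+, against -2.31, -3.35 and -3.91 in DOX- (difference 2.32, SE 0.49; limma adjusted p = 0.195). Ggt5, which acts on leukotriene C, differed by 0.54 (SE 0.13; limma adjusted p = 0.228). Lta4h, the leukotriene A hydrolase, had 1.72, 1.80 and 1.88 in DOX+, against 2.05, 2.07 and 2.11 in DOX- (difference -0.27, SE 0.11; limma adjusted p = 0.376). Alox5, the lipoxygenase of leukotriene synthesis and named after its values were seen, had -0.69, 1.08 and 2.82 in DOX+, against 1.13, 1.87 and 1.81 in DOX-. Its highest array was DOX+ replicate 3 and its lowest DOX+ replicate 1, as for the summed tuft cell markers.

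Under other processing no gene of the set passed the test, in any of 16 alternatives. The sign of the difference held in all 103 recomputed values of the 7 probes that were measured on at least 2 arrays.

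**Figure D5:**
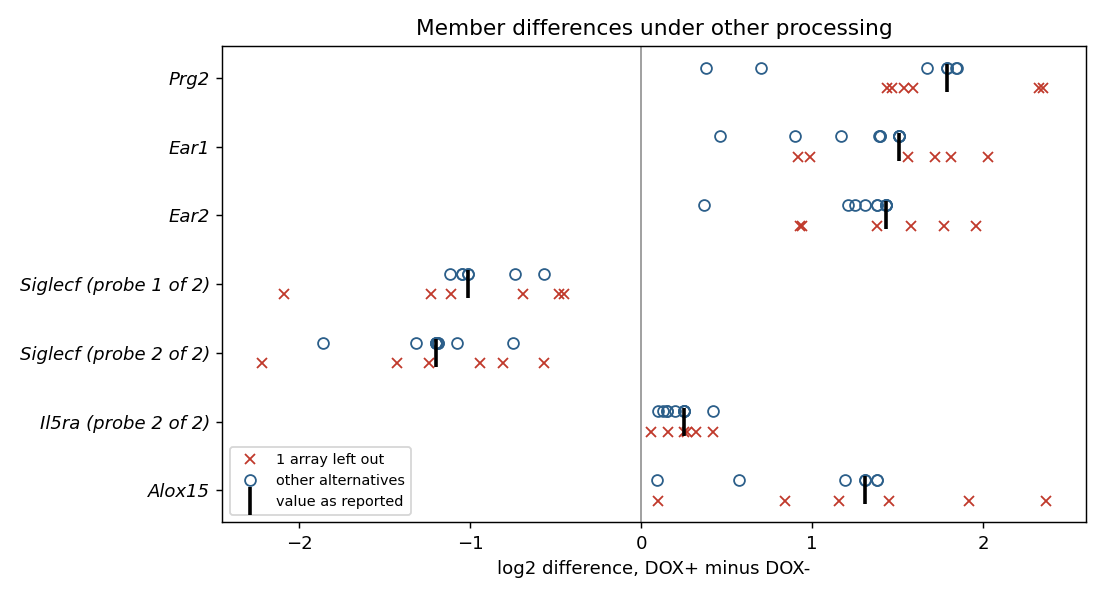
Log2 difference, DOX+ minus DOX- (horizontal axis), of the 7 probes measured on at least 2 arrays: the value as reported (black bar), with 1 array left out (red crosses) and under the other alternatives (blue circles). The Ear1 values run between 0.46 and 2.03 and those of the Siglecf probe at 50614768 between -2.22 and -0.57, and no probe changes sign.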

How the data were processed

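Scanner files were deposited as the authors' Agilent Feature Extraction output. The file headers name version 10.7.1.1, and the submitters' processing notes name 9.5.1.1. The files hold processed spot intensity, background-subtracted and detrended per the file headers, and 0 or 1 flags. A deposited table of the authors' processed intensity served as an alternative.

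Here each array's 75th percentile was subtracted from log2 processed intensity, spots of a probe were averaged, and control and outlier spots left out. Of 56605 probes 31720 passed the filter, and the probe with the highest mean stood for a gene. The two-sided test of DOX+ against DOX- used lmFit and eBayes of limma 3.58.1 (R 4.3.3), with no covariate. On simulated data of 20736 genes recovery was 33.1% at a 2-fold change, 76.1% at 4-fold and 88.9% at 8-fold, and 6% of calls were false. The changes were put into genes drawn at random, each with its own spread. Ear1, Ear2 and Siglecf had standard errors above the median over genes, so these shares do not give the recovery for them. Bounds set the brighter mean against, per array, the higher of the lowest measured signal and the probe's own.

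The genes and the 12 lists were chosen with earlier results of these data known. Named are all genes of the set and, per list, up to 4 with the smallest unadjusted p among tested genes with groups apart, otherwise the 2 with the highest mean; exceptions are marked, and defining or unmeasured markers are named beside them. A gene that the rule names is not reported here. Alternatives changed background correction, scaling, filter, probe choice, array weights, slide row, replicate block and arrays left out.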

Additional observations from a re-analysis of the deposited data

How the results depend on the processing

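Over all genes 8 passed the limma test, and this count moved with most choices. It was 2 with quantile normalisation and 2 with the authors' values, 5 with median centring, 1 without the filter on dim probes, 5 with a measured signal required on all 6 arrays, 18 with every probe tested on its own and 259 with array weights. With the slide row as a block it was 0 (1409 at an unadjusted p under 0.05 in limma), and leaving out 1 array gave 0 to 9. It was 0 without DOX- replicate 2 (1541 unadjusted) and 1 without DOX+ replicate 1.

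Replicate numbers did not pair the samples: deviations of same-numbered arrays correlated at -0.0867, -0.131 and -0.0201. With the replicate block 0 genes passed limma (2258 unadjusted) and 0 genes of the set, as in the other alternatives.

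Of 103 differences recomputed for the set 4 moved by more than the pooled SD between replicates: Prg2 with normexp (0.38), and Prg2 (0.70), Ear1 (0.46) and Ear2 (0.37) with the slide row block. Over all alternatives the adjusted p ranged from 0.208 to 0.956 for Ear1, 0.180 to 0.959 for Ear2, 0.122 to 0.955 for Siglecf and 0.501 to 0.941 for Il5ra, and the lowest for Ear1 and Ear2 came with array weights. Median centring shifted the median difference of all genes to -0.13. Signal over background limits Epx, Prg3 and Mcpt8, for which these arrays give no difference. The standard errors of Ear1 (0.67), Ear2 (0.63) and Siglecf (0.86) exceeded the median over genes, 0.185. The slide row block compares the DOX+ arrays with DOX- replicate 1 alone. For normexp the offset was 50 units, beside a highest Prg2 intensity of 58.0 units, on DOX+ replicate 3. Causes beyond these settings were not tested.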

Other observations

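Markers of other blood cells showed no call either. Among 12 neutrophil markers on the array 8 were tested, 5 with the higher and 3 with the lower mean in DOX+, and a median difference of 0.17. Camp and Retnlg, among the 5, passed the filter through DOX+ alone. Ly6g, a neutrophil surface protein, was the 1 tested gene with groups apart (10.1% of all genes apart and higher), at 0.60, 0.20 and -0.57 in DOX+ and -1.49, -1.08 and -0.82 in DOX- (difference 1.21, SE 0.33; limma adjusted p = 0.254). The largest differences among the tested genes of the list, named after their values were seen, were -3.06 for S100a8 (SE 1.63; limma adjusted p = 0.463), -2.89 for S100a9 and -2.87 for Ltf, with groups overlapping. The summed level of the list was 6.91, 6.61 and 6.90 in DOX+, against 7.63, 7.79 and 6.62 in DOX-. Much of this sum was Csf3r, named after its values were seen. It had 6.51, 6.56 and 6.66 in DOX+, against 6.49, 6.53 and 6.47 in DOX-. All 7 pan-leukocyte markers were tested and had the lower mean in DOX+, with groups overlapping and a median difference of -0.67. Their summed level was 3.75, 3.50 and 3.87 in DOX+, against 4.80, 4.90 and 3.00 in DOX-, so DOX- replicate 3 was the lowest array. The brightest were Cd52, a small surface protein, whose difference was -0.75 (SE 0.69; limma adjusted p = 0.663), and Ptprc, the leukocyte phosphatase CD45, whose probe with the highest mean gave -0.03 (SE 0.12; limma adjusted p = 0.949) and whose other 3 tested probes gave -0.63, -0.78 and -0.70.

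Red blood cell markers were tested in 6 of 8 cases, with 2 means higher and 4 lower in DOX+ and a median difference of -0.09. The globin genes Hba-a1 and Hba-a2 were highest on DOX+ replicate 2 and DOX- replicate 3, at 5.40, 7.44 and 6.03 in DOX+ and 5.76, 5.23 and 8.13 in DOX- for Hba-a1. Hba-a2 differed by -0.09 (SE 0.87; limma adjusted p = 0.976). Of the 10 cholangiocyte markers 2 had the higher and 8 the lower mean in DOX+, with a median difference of -0.20. Groups were apart and lower for 2 (10.9% of all genes): the junction protein Cdh1, whose difference was -2.01 (SE 0.37; limma adjusted p = 0.172), and the keratin Krt7, with one of -1.02 (SE 0.19; limma adjusted p = 0.172).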
